A study of Caenorhabditis elegans with 8 samples.

Results

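The comparison described here is that of libraries labelled rege-1 RNAi with mock libraries in N2, the laboratory wild type of Caenorhabditis elegans. It covers every gene that passed a filter on low counts, 15321 of the 20182 genes in the mRNA table, in 4 of the 8 libraries of the series. The aim of the series, by its title, was to find targets of the RNase domain protein that rege-1 encodes. RNA came from whole young adults that had been synchronized as first-stage larvae and fed double-stranded RNA against rege-1 or a mock control, with 2 libraries per group. The labels state no growth temperature for N2. The other 4 libraries, rege-1 RNAi and mock in animals with the glp-1 allele e2141 at the restrictive temperature, enter the shared estimate of spread and are given beside some results. Nothing in the labels tells whether the 2 libraries of a group came from different cultures, so p-values reflect only how far these libraries spread, which may be technical.

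REGE-1 belongs to the Regnase-1 family of endoribonucleases, which cut and destabilize chosen mRNAs. In C. elegans it is known to drive decay of the mRNA of ets-4, an ETS-family transcription factor, and its loss is known to lower body fat. The intestine of the worm is at once its gut, its main fat store, its source of yolk and a site of innate immune gene expression, so that digestive, lipid and immune families are read here from 1 whole-animal measurement.

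Levels are given as CPM, which are counts scaled to a common library total after TMM normalization and not divided by gene length unless stated. Changes are log2 ratios of RNAi-labelled over mock libraries with their standard error (SE), and adjusted p is that of edgeR's quasi-likelihood test over all 15321 genes, with a threshold of 0.05. A gene is called held when it passed that threshold whichever 1 of the 4 N2 libraries was left out. The RNAi-labelled libraries held 28169509 and 29688933 mRNA counts and the mock libraries 29550649 and 26127079. Chi-square per gene, which counting error alone would put near 1, averaged 27.4 between the RNAi-labelled libraries and 36.4 between the mock libraries. In glp-1 it averaged 53.9 between the RNAi-labelled libraries and only 3.36 between the mock libraries. The groups that share 1 estimate of spread thus differ widely in it. With the N2 libraries alone, 429 genes were higher and 190 lower.

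The targeted gene went against its label. In the mRNA table rege-1 (WBGene00016260, on the minus strand of chromosome I at 6954414 to 6961139 in the Ensembl annotation of WBcel235) had 101 and 78.4 CPM in the RNAi-labelled libraries, against 13.9 and 13.8 CPM in the mock libraries, a log2 change of 2.70 (SE 0.15, adjusted p = 7.19e-07). Intron counts of rege-1 were 4166 and 3265 in the RNAi-labelled libraries, against 15 and 15 in mock, a log2 change of 7.91. Both tables may count reads of the fed double-stranded RNA, which was not tested, so these values are not taken as levels of rege-1 mRNA. Every direction below is therefore that of the libraries labelled rege-1 RNAi. The known target ets-4 (chromosome X from 6518883 to 6522667, plus strand) rose, with 78.4 and 108.6 CPM in the RNAi-labelled libraries against 18.1 and 21.2 CPM in mock (log2 change 2.25, SE 0.17, adjusted p = 8.56e-06), while its intron counts of 138 and 233, against 263 and 224 in mock, gave a log2 change of -0.39 (SE 0.29, adjusted p = 0.923). The gene pqm-1, which encodes a zinc finger transcription factor known to act with ETS-4 in fat loss, had 20.8 and 41.7 CPM in the RNAi-labelled libraries against 9.29 and 15.5 CPM in mock (log2 change 1.34, adjusted p = 0.0257). Its call was lost without RNAi replicate 2 (adjusted p = 0.322) or without either mock replicate, 1 (0.298) or 2 (0.0501).

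Of the 15321 genes, 480 (3.13%) were called higher and 254 (1.66%) lower in the RNAi-labelled libraries, together 734 (4.79%). Every count of called family members below is to be read beside these shares. The median log2 change over all genes was -0.01. Called changes were mostly moderate. Of the 480 higher genes, 146 changed by less than 1 on the log2 scale, 197 by 1 to 2, 80 by 2 to 3, 25 by 3 to 4 and 32 by more, with a median of 1.33. Of the 254 lower genes, 90 changed by less than 1, 33 by 2 to 3, 6 by 3 to 4 and 3 by more, with a median of -1.16, and the rest by 1 to 2. In each of the 734 the RNAi-labelled libraries did not overlap the mock libraries, which over all genes held for 19.4% in the higher and 21.8% in the lower direction.

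Without mock replicate 1, mock replicate 2, RNAi replicate 1 and RNAi replicate 2 in turn, 288, 348, 383 and 331 genes were higher and 135, 150, 294 and 105 lower. Of the 480 higher genes 250 were held, and of the 254 lower genes 89. The lower genes were less even between the RNAi-labelled libraries: in 209 of 253 with counts in all 4 libraries replicate 2 lay below replicate 1, at a median log2 difference of -0.31, against 153 and -0.07 between the mock libraries.

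Counts of the 480 higher genes made up 8.13 and 8.63% of the RNAi-labelled libraries, against 2.53 and 2.84% of the mock libraries. Counts of the lower genes made up 1.01 and 0.907% of the RNAi-labelled libraries, against 2.13 and 2.52% of mock. Since a mean over the 4 libraries includes the changed ones, it is no measure of starting level: 11 higher genes averaged 1000 CPM or more over the 4 libraries, and in each of them the mock mean lay below 1000 CPM. The median SE of the log2 change was 0.49 for genes averaging below 1 CPM and 0.17 for those of at least 1000 CPM, so a change of a given size was harder to call in scarce mRNAs.

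**Figure D1:**
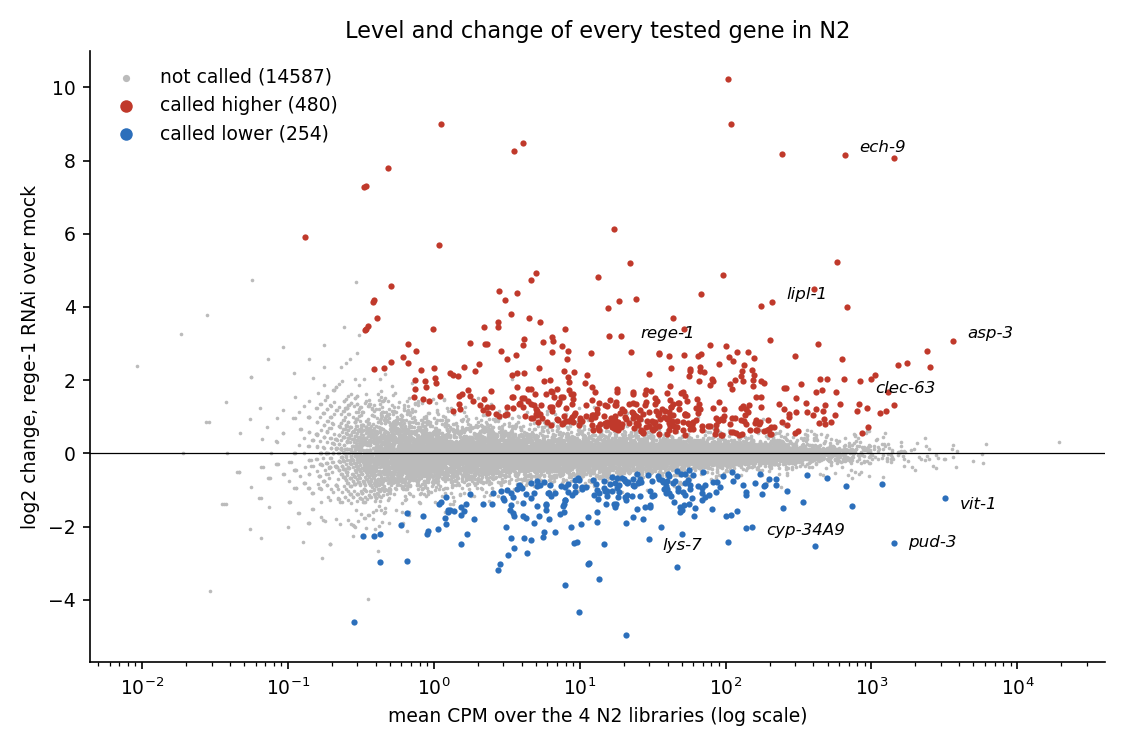
Each point is 1 of the 15321 tested genes, placed by its mean CPM over the 4 N2 libraries (log scale) and by its log2 change, libraries labelled rege-1 RNAi over mock; the 480 genes called higher are red and the 254 called lower blue. The placing by mean level includes the changed libraries, and asp-3 stands highest in level among the red points.

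Aspartyl proteases, the cathepsin D-type enzymes of the gut lumen and lysosome, had 9 members higher and 2 lower of 11 tested (17 in the table), with a median log2 change of 2.04 against -0.01 over all genes. Their summed level was 21355 and 24315 CPM in the RNAi-labelled libraries, against 3364 and 3998 CPM in mock. The most abundant, asp-3, had 6112 and 6899 CPM in the RNAi-labelled libraries against 669 and 889.5 CPM in mock (log2 change 3.06, SE 0.20, adjusted p = 2.24e-06). Next, asp-6 had 4109 and 4339 CPM in the RNAi-labelled libraries against 511 and 702.5 CPM in mock (2.80, SE 0.18, adjusted p = 2.56e-06). For asp-1 the values were 4177 and 4222 CPM, against 729.7 and 922 CPM in mock (2.35, SE 0.17, adjusted p = 5.41e-06). In all 3 genes both RNAi-labelled libraries lay several times above both mock libraries. The coding sequence of asp-2 is longer, 1908 bases against 1197 in asp-3, so per kilobase of coding length asp-2 averaged 1547 CPM in the RNAi-labelled libraries against 277 CPM in mock, and asp-3 5435 CPM against 651 CPM in mock.

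The family did not move as a block. The lower pair were asp-13, with 34.5 and 22.6 CPM in the RNAi-labelled libraries against 77.4 and 74.3 CPM in mock (log2 change -1.41, SE 0.18, adjusted p = 0.000409), and asp-4, known as a lysosomal protease of dying cells, with 190.2 and 159 CPM against 357.5 and 353 CPM in mock (-1.02, SE 0.14, adjusted p = 0.000848). The smallest rise was that of asp-8, whose log2 change of 0.89 lost its call without mock replicate 2 (adjusted p = 0.169) or RNAi replicate 1 (0.175). The other 10 calls of the family were held.

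Cysteine proteases of the cathepsin B and Z type were divided in the same way, with 3 higher and 2 lower of 10 tested and a median log2 change of 0.17. The cathepsin B-like cpr-4 had 1765 and 1666 CPM in the RNAi-labelled libraries against 422 and 352 CPM in mock (log2 change 2.15, SE 0.18, adjusted p = 1.93e-05). Its relative cpr-3 had 92.3 and 129 CPM against 18.2 and 17.03 CPM in mock (2.65, SE 0.17, adjusted p = 1.89e-06), and cpr-1 603.5 and 556 CPM against 282 and 219 CPM in mock (1.21, SE 0.16, adjusted p = 0.000482). By contrast cpz-1, the cathepsin Z homolog that is known for roles in molting, fell to 395 and 397 CPM in the RNAi-labelled libraries, against 1162 and 979 CPM in mock (-1.43, SE 0.15, adjusted p = 8.06e-05). The second lower member, cpr-6, at 384 and 379 CPM against 595 and 631 CPM in mock (-0.68), lost its call whichever library was left out (adjusted p from 0.054 to 0.128), so 1 lower call was left in each case.

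Saposin-like proteins, small lipid-binding proteins of which some kill bacteria by forming pores, had 10 members higher and 0 lower of 23 tested, with a median log2 change of 0.82, and 9 of the 10 were held. Abundant members were spp-23, with 331 and 386 CPM in the RNAi-labelled libraries against 53.8 and 30.3 CPM in mock (3.09, SE 0.24, adjusted p = 1.06e-05), and spp-2, with 171 and 186 CPM against 22.99 and 23.96 CPM in mock (2.93, SE 0.15, adjusted p = 3.24e-07). A scarcer one, spp-18, had 58.4 and 63.4 CPM against 7.53 and 11.1 CPM in mock (2.71, SE 0.19, adjusted p = 3.99e-06). The most abundant of the higher members, spp-3, was the 1 that was not held: 580.4 and 543 CPM against 292 and 345 CPM in mock gave 0.82, with an adjusted p of 0.231 without mock replicate 1, 0.0782 without mock replicate 2, 0.115 without RNAi replicate 1 and 0.0999 without RNAi replicate 2.

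Lipases of the lysosomal acid type had 2 higher members of 6 tested and a median log2 change of 0.14. For lipl-1, known to break down stored fat under fasting, the level was 355 and 429.6 CPM in the RNAi-labelled libraries, against 23.4 and 21.5 CPM in mock (4.13, SE 0.17, adjusted p = 1.00e-07). The rise of lipl-2 was smaller, at 83.2 and 92.6 CPM against 40.4 and 41.2 CPM in mock (1.11, SE 0.14, adjusted p = 0.000339). Lysozymes, enzymes that cut bacterial cell walls, had 2 higher and 1 lower of 10 tested, with a median log2 change of -0.01. Here lys-8 had 718.5 and 682.5 CPM in the RNAi-labelled libraries against 193 and 228 CPM in mock (1.73, SE 0.15, adjusted p = 2.36e-05), while lys-7 had 12.3 and 7.41 CPM against 44.4 and 54.5 CPM in mock (-2.33, SE 0.21, adjusted p = 3.22e-05). The proton pump, which acidifies lysosomes but is not limited to them, had 5 higher subunits of 20 tested and a median log2 change of 0.47. There were only 1, 3, 1 and 1 without mock replicate 1, mock replicate 2, RNAi replicate 1 and RNAi replicate 2. The held subunit was vha-6, the pump subunit of the intestinal lumen face, with 846 and 892 CPM in the RNAi-labelled libraries against 343 and 341 CPM in mock (1.34, SE 0.14, adjusted p = 8.06e-05).

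**Figure D2:**
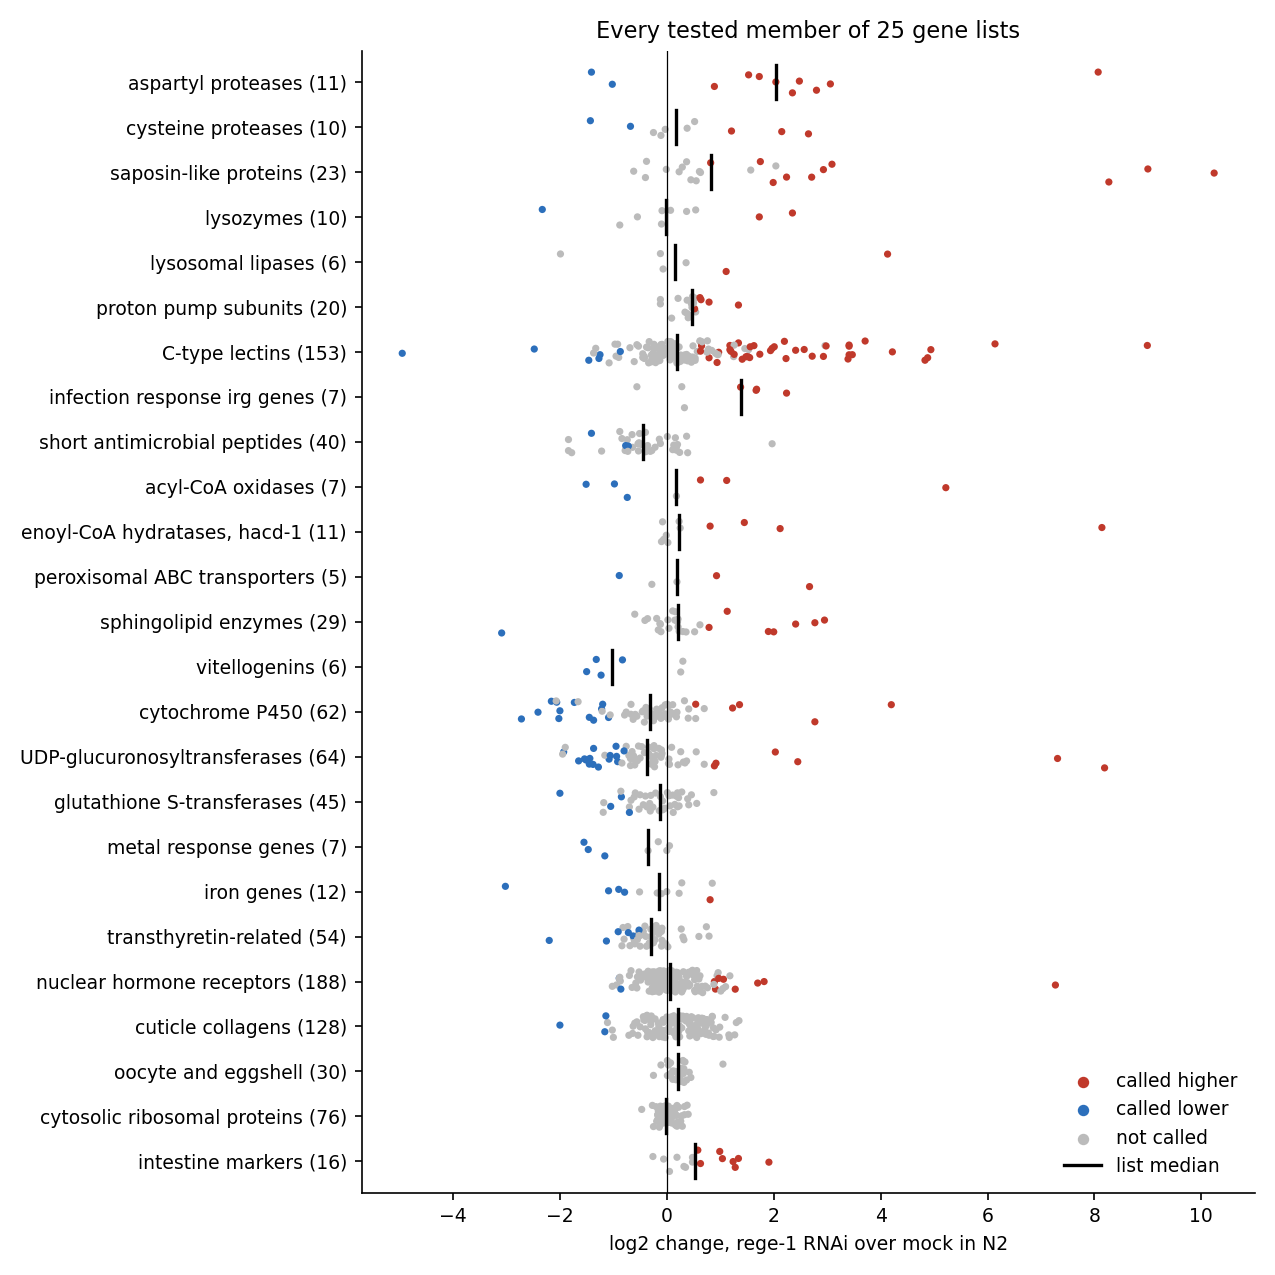
Each point is 1 tested gene of the list named on the left (number of tested members in brackets), placed by its log2 change, libraries labelled rege-1 RNAi over mock in N2; black bars are list medians, and vertical scatter within a row has no meaning. Aspartyl proteases have a median of 2.04 and vitellogenins of -1.03, while UDP-glucuronosyltransferases and cytochromes P450 hold both blue points and a few red ones.

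C-type lectins, secreted sugar-binding proteins used as markers of the worm's immune response, were the family with most called genes, 39 higher and 6 lower of 153 tested, although the median log2 change of the family was 0.19. Summed, they had 7161 and 7771 CPM in the RNAi-labelled libraries against 3057 and 3389 CPM in mock. Much of that was clec-63, with 2217 and 2917 CPM in the RNAi-labelled libraries against 381 and 586 CPM in mock (2.41, SE 0.22, adjusted p = 3.51e-05), and clec-50, with 1143 and 1220 CPM against 473 and 459 CPM in mock (1.34, SE 0.16, adjusted p = 0.000339). Steeper changes were found in less abundant members. For clec-52 the values were 156 and 215.5 CPM in the RNAi-labelled libraries, against 5.89 and 6.77 CPM in mock (4.88, SE 0.24, adjusted p = 3.15e-07). The infection-induced clec-60 had 25.3 and 26.3 CPM, against 0.981 and 0.817 CPM in mock (4.83, SE 0.23, adjusted p = 2.37e-07). For clec-67 they were 89.5 and 101 CPM, against 7.74 and 10.5 CPM in mock (3.39, SE 0.17, adjusted p = 3.36e-07). As in every gene called higher, the lower RNAi-labelled library lay above the higher mock library in these lectins.

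Of the lectins, 25 higher and 2 lower calls were held, and the 6 lower calls were 2 without mock replicate 2 and 2 without RNAi replicate 2. Several clec genes lie in tandem, and reads could be split between close copies.

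The infection response genes (irg) had 4 higher and 0 lower of 7 tested, all 4 held, with a median log2 change of 1.38. The large secreted protein gene irg-7 had 1723 and 2255 CPM in the RNAi-labelled libraries against 643 and 601 CPM in mock (1.68, SE 0.17, adjusted p = 6.81e-05), and irg-5 had 90.8 and 130.0 CPM against 14.6 and 32.3 CPM in mock (2.24, SE 0.30, adjusted p = 0.000608). Members of the p38 kinase cascade, which acts upstream of many such genes, had 1 higher of 10 tested and a median of 0.34. That member was tir-1, the TIR-domain adaptor, at 49.6 and 67.7 CPM against 23.6 and 33.4 CPM in mock (1.04, SE 0.20, adjusted p = 0.00982), which lost its call without mock replicate 1 (adjusted p = 0.146) or RNAi replicate 2 (0.13). Without mock replicate 2 there were 2 higher members of the cascade.

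Short antimicrobial peptides of the nlp, cnc, fip and fipr type, which are known mainly from the epidermis, ran the other way. Of 40 tested 0 were higher and 3 lower, with a median log2 change of -0.44, and their sum was 566 and 442 CPM in the RNAi-labelled libraries against 771 and 668 CPM in mock. The 3 were nlp-33 (-0.77), fipr-13 (-0.72) and fip-6 (-1.41), and none was held, with 1, 1, 1 and 0 lower without mock replicate 1, mock replicate 2, RNAi replicate 1 and RNAi replicate 2. MATH and BATH genes, a large group of putative ubiquitin ligase adaptors, had 5 higher (8.33%) and 1 lower (1.67%) of 60, beside 3.13% and 1.66% over all genes. With the same libraries left out in that order, 2, 2, 3 and 3 were higher. The lower call was absent without mock replicate 2 or RNAi replicate 2. The steepest of them, math-34, had 27.3 and 31.8 CPM in the RNAi-labelled libraries against 1.997 and 1.789 CPM in mock (3.96, SE 0.21, adjusted p = 6.30e-07).

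Among lipid genes, enzymes of sphingolipid synthesis and breakdown held several firm calls. Of 29 tested 7 were higher and 1 lower, all 8 were held, and the median log2 change was 0.20. They included both ends of the pathway. The subunits of serine palmitoyltransferase, which starts sphingolipid synthesis, were both higher: sptl-2 had 234 and 213 CPM in the RNAi-labelled libraries against 43.7 and 40.2 CPM in mock (2.41, SE 0.13, adjusted p = 7.19e-07). For sptl-1 the values were 506 and 480 CPM, against 221 and 229 CPM in mock (1.13, SE 0.13, adjusted p = 0.000249). Enzymes of breakdown rose as well. The acid sphingomyelinase asm-2 had 136 and 141 CPM in the RNAi-labelled libraries against 16.8 and 19.02 CPM in mock (2.95, SE 0.13, adjusted p = 1.40e-07). The glucocerebrosidase gba-1 had 232.5 and 265 CPM against 34.2 and 38.6 CPM in mock (2.77, SE 0.14, adjusted p = 3.24e-07), and the acid ceramidase asah-1 had 219 and 272 CPM against 61.4 and 61.1 CPM in mock (2.0, SE 0.16, adjusted p = 1.11e-05). The lower member was a second acid sphingomyelinase, asm-3, at 11.5 and 8.07 CPM against 95.6 and 71.4 CPM in mock (-3.09, SE 0.22, adjusted p = 4.33e-06).

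Peroxisomal genes, which shorten very long fatty acids and make ascaroside pheromones, were mixed. Acyl-CoA oxidases, the first step of the peroxisomal cycle, had 3 higher and 3 lower of 7 tested. The lower 3, acox-1.2, acox-1.3 and acox-1.4, adjoin each other on chromosome I. Of them acox-1.3 was held, with 15.8 and 10.02 CPM in the RNAi-labelled libraries against 39.5 and 34.2 CPM in mock (-1.51, SE 0.21, adjusted p = 0.00104), and it was the 1 lower oxidase left without mock replicate 1 or RNAi replicate 2. The held acox-1.6 had 28.1 and 33.95 CPM against 14.9 and 13.7 CPM in mock (1.12, SE 0.15, adjusted p = 0.000848). Enoyl-CoA hydratases and the hydroxyacyl-CoA dehydrogenase hacd-1, listed by enzyme type and not limited to the peroxisome, had 4 higher and 0 lower of 11. Of these hacd-1 had 207.6 and 207.4 CPM against 50 and 45.2 CPM in mock (2.12, SE 0.14, adjusted p = 3.35e-06). The short-chain dehydrogenase dhs-28, which acts in ascaroside synthesis, had 363.5 and 375 CPM against 177 and 170.4 CPM in mock (1.09, SE 0.13, adjusted p = 0.000353). Of 5 peroxisomal ABC transporters 2 were higher and 1 lower, with 1 higher without mock replicate 1 or mock replicate 2. The largest change was that of pmp-1, with 569 and 461 CPM against 76.0 and 85.9 CPM in mock (2.67, SE 0.22, adjusted p = 1.28e-05).

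Yolk protein genes, the vitellogenins, had 0 higher and 4 lower of 6 tested, with a median log2 change of -1.03. Held were vit-3, with 146 and 113 CPM in the RNAi-labelled libraries against 305 and 427.5 CPM in mock (-1.5, SE 0.18, adjusted p = 0.000365), and vit-4, with 194.5 and 193 CPM against 393 and 578 CPM in mock (-1.32, SE 0.18, adjusted p = 0.000668). The most abundant lower member, vit-1, had 1572 and 2260 CPM against 3275 and 5731 CPM in mock (-1.23, SE 0.25, adjusted p = 0.0121) and lost its call without mock replicate 2 (adjusted p = 0.116) or RNAi replicate 1 (0.112). For vit-5, at 826 and 871 CPM against 1252 and 1771 CPM in mock (-0.83), the call was lost without mock replicate 2 (0.104) or without either RNAi replicate, 1 (0.102) or 2 (0.107). Without mock replicate 2 or RNAi replicate 1 there were 2 lower members. Neither vit-6, at 18690 and 23560 CPM against 12950 and 21490 CPM in mock, nor vit-2, at 4755 and 8579 CPM against 3816 and 7308 CPM in mock, passed the test (adjusted p = 0.705 and 0.834), and their libraries overlapped. Since vit-6 dominates the sum, total yolk mRNA was 26187 and 35578 CPM in the RNAi-labelled libraries and 21991 and 37306 CPM in mock. The vit genes are close copies, so counts could be split between them.

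Several single lipid genes outside these groups were singled out after their values were seen. The delta-9 desaturase fat-5 was the higher desaturase of 7, with 63.9 and 57.6 CPM in the RNAi-labelled libraries against 11.7 and 6.50 CPM in mock (2.73, SE 0.24, adjusted p = 2.67e-05). The gene dsc-4, which encodes the worm homolog of the microsomal triglyceride transfer protein that loads lipid onto lipoproteins, had 651 and 776 CPM against 169.7 and 178 CPM in mock (2.04, SE 0.15, adjusted p = 5.30e-06). The phospholipid synthesis genes pcyt-2.1 (1.80, SE 0.14, adjusted p = 8.88e-06), ept-1 (1.35, SE 0.14, adjusted p = 8.06e-05) and psd-1 (1.21, SE 0.12, adjusted p = 8.14e-05) rose, and no list of that pathway was counted. The triglyceride synthesis gene dgat-2 fell to 20.3 and 20.2 CPM in the RNAi-labelled libraries, against 50.7 and 38.1 CPM in mock (-1.13, SE 0.16, adjusted p = 0.00112). No list of that pathway was counted either, so dgat-2 does not stand for it. Acyltransferase genes of the acl prefix had 3 higher and 0 lower of 13, with a median of 0.09. They were acl-1 (2.12, adjusted p = 3.48e-06), acl-7 (1.20) and acl-4 (0.91).

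Among the lists, 2 detoxification families held the most lower calls. Cytochromes P450, the oxidases of the first phase of detoxification, had 5 higher and 12 lower of 62 tested, with a median log2 change of -0.32. Their sum was 1410 and 1209 CPM in the RNAi-labelled libraries against 2023 and 1977 CPM in mock. The lower calls lay mainly in the cyp-34A and cyp-35 subfamilies. The most abundant of them, cyp-34A9, had 61.7 and 59.3 CPM in the RNAi-labelled libraries against 251 and 239 CPM in mock (-2.02, SE 0.12, adjusted p = 1.46e-06). For cyp-35A2 the level was 3.41 and 2.64 CPM, against 16.01 and 16.14 CPM in mock (-2.41, SE 0.19, adjusted p = 8.88e-06), and for cyp-35A5 2.88 and 2.09 CPM, against 11.5 and 10.7 CPM in mock (-2.16, SE 0.22, adjusted p = 8.06e-05). A higher member was cyp-13A12, a gene known from the response to reoxygenation, with 5.61 and 6.02 CPM against 0.456 and 0.156 CPM in mock (4.20, SE 0.35, adjusted p = 1.52e-05). Without mock replicate 1 there were 3 higher and 7 lower, and without mock replicate 2 there were 3 higher. The cyp-34A genes adjoin each other, so read sharing cannot be told apart from joint change.

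UDP-glucuronosyltransferases, the conjugating enzymes of the second phase, had 6 higher and 15 lower of 64, with a median log2 change of -0.38, and 4 higher and 11 lower calls were held. A lower example is ugt-22, with 48.9 and 35.3 CPM in the RNAi-labelled libraries against 120.3 and 119.1 CPM in mock (-1.51, SE 0.18, adjusted p = 0.000329), and another is ugt-28, with 28.8 and 23.6 CPM against 73.9 and 68.8 CPM in mock (-1.45, SE 0.16, adjusted p = 0.000137). The sum of the family was nevertheless 3850.0 and 3156 CPM in the RNAi-labelled libraries and 3113 and 3087 CPM in mock, because of a few abundant higher members such as ugt-44, with 904 and 681 CPM against 160.4 and 228 CPM in mock (2.03, SE 0.21, adjusted p = 9.80e-05). Glutathione S-transferases had 0 higher and 4 lower (8.89%) of 45, beside 1.66% lower over all genes. Of these gst-4, a common reporter of oxidative stress, had 37.1 and 29.2 CPM against 63.4 and 73.7 CPM in mock (-1.05, SE 0.16, adjusted p = 0.00201), and gst-10 had 18.1 and 10.9 CPM against 71.1 and 44.9 CPM in mock (-2.0, SE 0.25, adjusted p = 0.000398).

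Metal response genes had 0 higher and 3 lower of 7 tested. The metallothionein mtl-1 had 2.46 and 3.52 CPM in the RNAi-labelled libraries against 7.08 and 10.6 CPM in mock (-1.55, SE 0.26, adjusted p = 0.00326), and the cadmium-responsive cdr-1 had 15.8 and 14.1 CPM against 37.2 and 45.7 CPM in mock (-1.47, SE 0.17, adjusted p = 0.000218). The second metallothionein, mtl-2, had 121.8 and 111 CPM against 107 and 118.9 CPM in mock and did not pass the test (adjusted p = 0.958). Iron and heme genes had 1 higher and 4 lower of 12, with 2 lower without mock replicate 1 or mock replicate 2. The higher call was absent without mock replicate 2 or RNAi replicate 1, and there were 2 without RNAi replicate 2. The heme transporter hrg-1 was held, at 28.3 and 23.7 CPM against 54.5 and 56.4 CPM in mock (-1.09, SE 0.16, adjusted p = 0.00155). Ferritin gene ftn-1 was the other held member, at 0.683 and 0.551 CPM against 5.08 and 4.98 CPM in mock (-3.02, SE 0.27, adjusted p = 2.76e-05).

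Nuclear hormone receptors had 8 higher and 2 lower of 188, shares of the order of the background, and 5 higher without mock replicate 2. The lower calls were 0, 1, 0 and 0 without mock replicate 1, mock replicate 2, RNAi replicate 1 and RNAi replicate 2. Log2 changes over the tested receptors ran from -1.02 to 7.27. The higher member of lowest p, nhr-179, was held, with 5.73 and 5.91 CPM in the RNAi-labelled libraries against 1.61 and 1.67 CPM in mock (1.82, SE 0.22, adjusted p = 0.000319). Transthyretin-related genes, a nematode family of secreted proteins, had 0 higher and 6 lower of 54, with a median log2 change of -0.30 and 2 lower without RNAi replicate 2. Their held members were ttr-44, with 21.01 and 14.8 CPM against 89.6 and 75.02 CPM in mock (-2.20, SE 0.17, adjusted p = 9.42e-06), and ttr-45, with 56.0 and 40.9 CPM against 115 and 97.8 CPM in mock (-1.13, SE 0.16, adjusted p = 0.00112). Nematode-specific peptides had 5 higher and 0 lower of 28 tested, with a median log2 change of -0.04. The 5 were all of the nspg group and 4 of these calls were held. Without RNAi replicate 1 there was also 1 lower. Cuticle collagens had a median log2 change of 0.20 and 0 called higher of 128, against 3.13% over all genes. Of them 3 (2.34%) were called lower, near the 1.66% over all genes, and 0 were held. Called or not, 42 of the 128 lay above mock without overlap and 13 below, beside 19.4% and 21.8% of all genes. Lower calls among the collagens numbered 1, 1, 6 and 1 without mock replicate 1, mock replicate 2, RNAi replicate 1 and RNAi replicate 2. Without mock replicate 1, mock replicate 2 and RNAi replicate 2 there were also 2, 1 and 1 higher collagens.

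Of 80 lists, 25 had no called member by edgeR with all libraries. Among them were cytosolic ribosomal proteins (76 tested, median log2 change -0.02), mitochondrial ribosomal proteins (69, -0.12), proteasome subunits (33, 0.03), the respiratory chain (32, -0.03), sperm-specific families (41, -0.04), meiosis genes (24, -0.04) and oocyte and eggshell genes (30, 0.22). Heat shock proteins (18, 0.01) also had none.

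Genes were ranked if called with at least 5 CPM in the higher group, which left 416 higher and 210 lower. In ranks 11 to 50 of the higher genes, with log2 changes of 4.94 to 2.78, 20 of 40 belonged to one of the families or functions listed, 8 of them C-type lectins. In ranks 51 to 150 (2.77 to 1.55), 39 of 100 did, with 9 lectins and 4 each of the sphingolipid enzymes, aspartyl proteases and saposin-like proteins. In ranks 151 to 416 (1.55 to 0.50), 74 of 266 did, with 10 lectins, 5 proton pump subunits and 5 nuclear hormone receptors. On the lower side, 12 of 40 in ranks 11 to 50 (-2.58 to -1.56) belonged to a listed family, 5 of them cytochromes P450. In ranks 51 to 150 (-1.55 to -0.86), 47 of 100 did, 12 of them UDP-glucuronosyltransferases. Over all called genes, 165 of 480 higher (34.4%) and 97 of 254 lower (38.2%) were in a listed family, as were 2408 of the 15321 tested (15.7%), and 315 and 157 were in none. The lists were chosen with earlier results of these data known. Shares of called genes in listed families were therefore partly set in advance and are only a description.

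**Figure D3:**
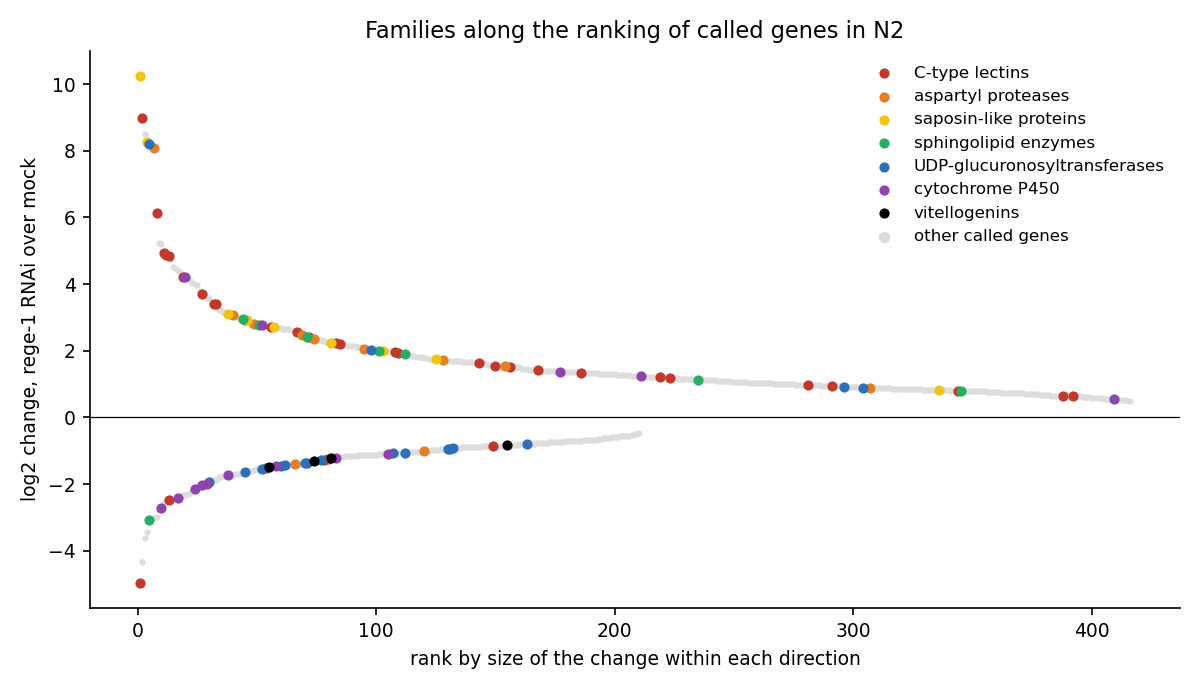
Called genes ranked by the size of their log2 change within each direction (416 higher above the line, 210 lower below it), with 7 families coloured. Lectins appear along the whole upper curve, and UDP-glucuronosyltransferases mostly on the lower curve. Sphingolipid enzymes lie between changes of 2.95 and 0.79 on the upper curve, with asm-3 at -3.09 on the lower.

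Ranks 11 to 20 of the higher genes included genes outside the listed families. The most abundant of them was F49C12.7, with 785 and 759.9 CPM in the RNAi-labelled libraries against 31.5 and 36.7 CPM in mock (4.50, SE 0.17, adjusted p = 5.22e-08). Next came F09C8.1, with 113 and 144 CPM against 4.91 and 7.70 CPM in mock (4.35, SE 0.22, adjusted p = 3.24e-07). The predicted sodium channel gene egas-4 was scarcer, with 7.28 and 10.7 CPM against 0.385 and 0.272 CPM in mock (4.74, SE 0.32, adjusted p = 3.35e-06). The remaining 7, clec-71, clec-52, clec-60, W07B8.4, nspg-7.2, clec-169 and cyp-13A12, changed by 4.94 to 4.20, and all 10 were held. On the lower side the same ranks held the paired genes pud-3 and pud-4, named for being raised in long-lived daf-2 mutants. The level of pud-3 was 585.5 and 296 CPM in the RNAi-labelled libraries, against 2003 and 2850.0 CPM in mock (-2.46, SE 0.29, adjusted p = 0.000241). For pud-4 it was 147 and 96.5 CPM, against 638 and 754 CPM in mock (-2.52, SE 0.20, adjusted p = 1.28e-05). The other 8, drd-50, clec-86, E02H4.4, Y40H7A.10, cyp-35A2, W02H3.1, lys-7 and arcp-1, changed by -2.58 to -2.32, and all 10 lower genes were held. Of these, Y40H7A.10 had 43.5 and 21.9 CPM against 165 and 186.5 CPM in mock (-2.42, SE 0.25, adjusted p = 8.71e-05), with a gap between the groups wider than that between its RNAi-labelled libraries.

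The 8 most abundant called genes in each direction included asp-12, C17F4.7 and srlf-7. The level of asp-12 was 2184 and 3520.0 CPM in the RNAi-labelled libraries, against 10.8 and 10.4 CPM in mock (8.07, SE 0.28, adjusted p = 2.50e-08). For C17F4.7 it was 2013 and 2092 CPM, against 781 and 865 CPM in mock (1.32, SE 0.16, adjusted p = 0.000395). Lower was srlf-7, with 504 and 426 CPM against 795 and 934 CPM in mock (-0.90), whose call was lost without mock replicate 2 (adjusted p = 0.112) or RNAi replicate 2 (0.163). The pud pair was also among the abundant lower genes.

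Genes in the middle of the ranking changed by a little over 1 on the log2 scale. Of the 8 higher genes nearest the middle rank, pept-1, the intestinal peptide transporter, had 238 and 258 CPM in the RNAi-labelled libraries against 91.3 and 113 CPM in mock (1.28, SE 0.16, adjusted p = 0.000413). The intestinal acid phosphatase pho-1 had 176 and 180.3 CPM against 67.5 and 83.5 CPM in mock (1.24), and K12H4.7, a predicted lysosomal serine carboxypeptidase, 1278 and 1329 CPM against 488 and 617 CPM in mock (1.24, SE 0.16, adjusted p = 0.000418). A scavenger receptor of the CD36 type, scav-1, had 88.4 and 87.8 CPM against 35.8 and 38.6 CPM in mock (1.24, SE 0.12, adjusted p = 4.42e-05). The next ones of the set, Y32F6A.4 (1.24) and K11H12.4 (1.22), were held as well. The calls of the last pair were not: ZK1290.14 (1.26) lost its call without mock replicate 1 (adjusted p = 0.125) or RNAi replicate 1 (0.0703), and cyp-37B1 (1.23) without mock replicate 1 (0.0764) or mock replicate 2 (0.0549).

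The middle lower genes were less firm. Of the 8, only hrg-1 was held. The branched-chain acyl-CoA dehydrogenase acdh-1 had 4.59 and 3.16 CPM in the RNAi-labelled libraries against 6.10 and 10.3 CPM in mock (-1.08, SE 0.25, adjusted p = 0.0308) and lost its call without mock replicate 2 (adjusted p = 0.232) or RNAi replicate 2 (0.341). The cystatin-type protease inhibitor cpi-1 had 57.7 and 30.4 CPM against 91.7 and 93.9 CPM in mock (-1.07, SE 0.24, adjusted p = 0.0237) and lost it without RNAi replicate 2 (0.145) or without either mock replicate, 1 (0.166) or 2 (0.149). The cytochrome cyp-34A10, at 4.32 and 4.33 CPM against 10.1 and 8.28 CPM in mock (-1.09), lost it without mock replicate 1 (0.061). The remaining 4 were cpt-4, oac-32, ugt-41 and trhr-1, with log2 changes from -1.09 to -1.07. Their calls were lost without mock replicate 2 (adjusted p from 0.0791 to 0.273) and without RNAi replicate 2 (0.0526 to 0.363). Mock replicate 1 also ended the calls of cpt-4 (0.0533), oac-32 (0.0513) and ugt-41 (0.103), and RNAi replicate 1 those of cpt-4 (0.123) and trhr-1 (0.0918).

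**Figure D4:**
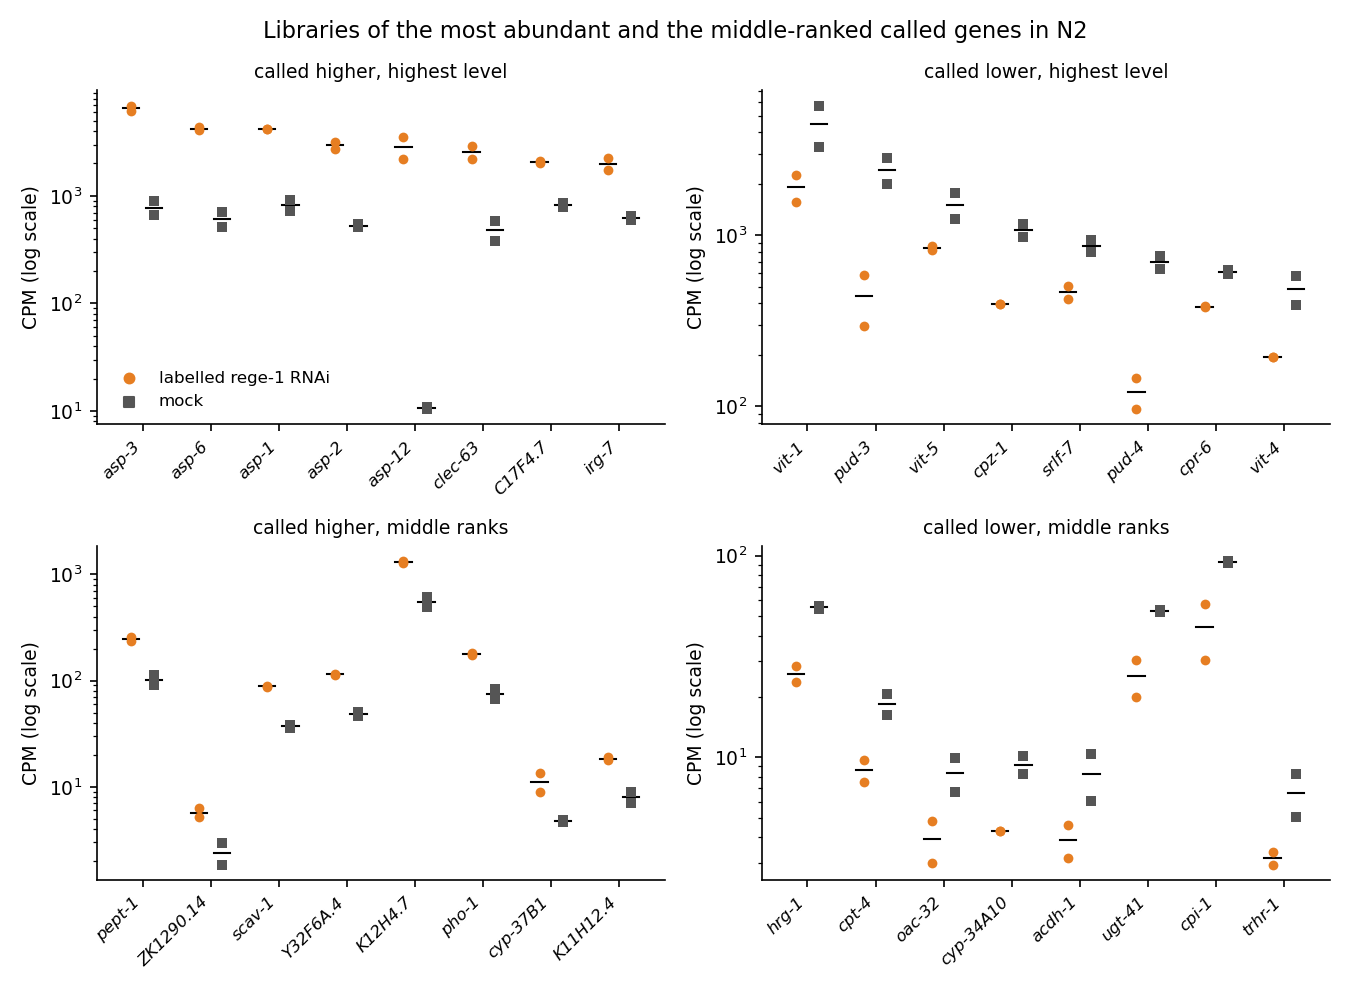
CPM (log scale) of the most abundant called genes (upper panels) and of those nearest the middle rank (lower panels) in each N2 library; circles are libraries labelled rege-1 RNAi, squares mock, and bars the mean of 2 libraries. In asp-12, which has the widest gap, 2184 and 3520.0 CPM stand against 10.8 and 10.4 CPM in mock, while vit-1 and cpi-1 show the wide spread within a group of the less firm lower calls.

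Symbols that share a prefix outside the lists added further groups, which were chosen after their values were seen and so are a description. Scavenger receptors (scav) had 3 higher of 6 tested, with scav-4 at 66.6 and 63.3 CPM in the RNAi-labelled libraries against 16.7 and 19.4 CPM in mock (1.85, SE 0.14, adjusted p = 6.79e-06). Predicted lysosomal carboxypeptidases of the pcp group had 3 higher and 1 lower of 5, and those of the cathepsin A-like ctsa group 2 higher of 7. Of these pcp-2 had 707 and 828.5 CPM against 84.8 and 109 CPM in mock (2.98, SE 0.23, adjusted p = 8.88e-06), and ctsa-2 had 1167 and 1501 CPM against 305 and 371 CPM in mock (1.98, SE 0.17, adjusted p = 2.15e-05). The lower pcp-3 (-0.87) lost its call without RNAi replicate 2 (adjusted p = 0.0664), and the higher pcp-1 in every case (0.16 to 0.198). Of 7 mfsd genes 1 was higher, mfsd-8, which encodes a lysosomal membrane protein (1.61, adjusted p = 1.82e-05), and 1 lower, mfsd-13.2 (-1.01), whose call was lost without mock replicate 2 (adjusted p = 0.06) or RNAi replicate 2 (0.0784). In the other direction the acid nuclease gene nuc-1, which degrades DNA of dead cells and food, had 50.1 and 43.6 CPM against 145 and 160.5 CPM in mock (-1.71, SE 0.14, adjusted p = 1.47e-05). Carboxylesterases (cest) had 2 higher and 6 lower of 31, among them cest-28, with 2.12 and 1.69 CPM against 9.81 and 8.67 CPM in mock (-2.28, SE 0.21, adjusted p = 3.22e-05).

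Called genes often had a neighbour called the same way. A neighbour was the next tested gene with a position on the same chromosome, at any distance and past any untested gene. Members of a run below therefore need not lie side by side. Of 471 higher genes with a position, 87 (18.5%) had a neighbour called higher, as did 909 of all 14938 tested genes with a position (6.09%). For lower genes the numbers were 42 of 250 (16.8%), and 488 of all genes (3.27%). One run on chromosome IV, from 3922165 to 3947362, held clec-67, clec-70, clec-71 and clec-72 with a gene without a symbol, at log2 changes of 3.39 to 8.99. Another on chromosome V, from 8267511 to 8274044, held asp-6, asp-12 and asp-5 (2.04 to 8.07). The longest lower runs were also on chromosome V. From 3961681 to 3972991 it held cyp-34A7, cyp-34A8, cyp-34A9 and cyp-34A10 (-2.72 to -1.09), and from 2324634 to 2568882 pud-3, pud-4, gst-10 and Y45G12C.1 (-2.52 to -1.71). By chromosome, the share called higher was smallest on chromosome I (1.45%) and largest on X (4.38%), and the share called lower was largest on V (2.95%). Tandem copies and genes that overlap can share reads, and the strand of counting was not stated.

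The intron table gave a second readout of the same libraries, at far lower depth: 639668 and 559654 intron counts in the RNAi-labelled libraries and 490972 and 630172 in mock. Of 5042 genes tested, 43 were higher (0.853%) and 11 lower (0.218%). Of the 480 genes higher on mRNA, 223 had an intron test. Their introns were called higher in 42 and lower in 0, had the same sign in 193, and changed by a median log2 of 1.06 beside 1.21 for their mRNA. Of the 254 lower genes, 85 had an intron test, with 8 called lower, 73 of the same sign, and medians of -0.91 for introns and -0.98 for mRNA. Both tables come from the same libraries, so this is no independent replicate. The count filter also let in genes with intron counts almost only where they were high. Introns of clec-70, for example, had 43 and 12 counts in the RNAi-labelled libraries against 0 and 0 in mock. The shared signs and the medians are thus partly set by the filter and are a description. Without mock replicate 1, mock replicate 2 and RNAi replicate 1 there were 23, 22 and 27 higher intron calls, and 4, 6, 4 and 5 lower ones without mock replicate 1, mock replicate 2, RNAi replicate 1 and RNAi replicate 2.

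Single genes show the range. Introns of the glucocerebrosidase gene gba-4 had 85 and 54 counts in the RNAi-labelled libraries against 6 and 5 in mock (3.60, SE 0.41, adjusted p = 1.56e-05; mRNA 1.90). Introns of gba-1 had 62 and 46 counts against 10 and 9 in mock (2.46, SE 0.38, adjusted p = 0.000786; mRNA 2.77), and those of sptl-2 had 159 and 120 against 29 and 28 in mock (2.25, SE 0.33, adjusted p = 0.000463; mRNA 2.41). In nhr-31, a nuclear hormone receptor, introns changed more than mRNA: 64 and 36 counts against 10 and 5 in mock (2.69, SE 0.42, adjusted p = 0.00105), beside an mRNA change of 0.91. The difference between the intron and mRNA changes of 1 gene was not tested here. That mRNA call of nhr-31 was lost without RNAi replicate 1 (adjusted p = 0.075) or without either mock replicate, 1 (0.082) or 2 (0.129). Among lower genes, introns of eppl-1 had 22 and 28 counts against 103 and 48 in mock (-1.57, SE 0.34, adjusted p = 0.019; mRNA -1.56).

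**Figure D5:**
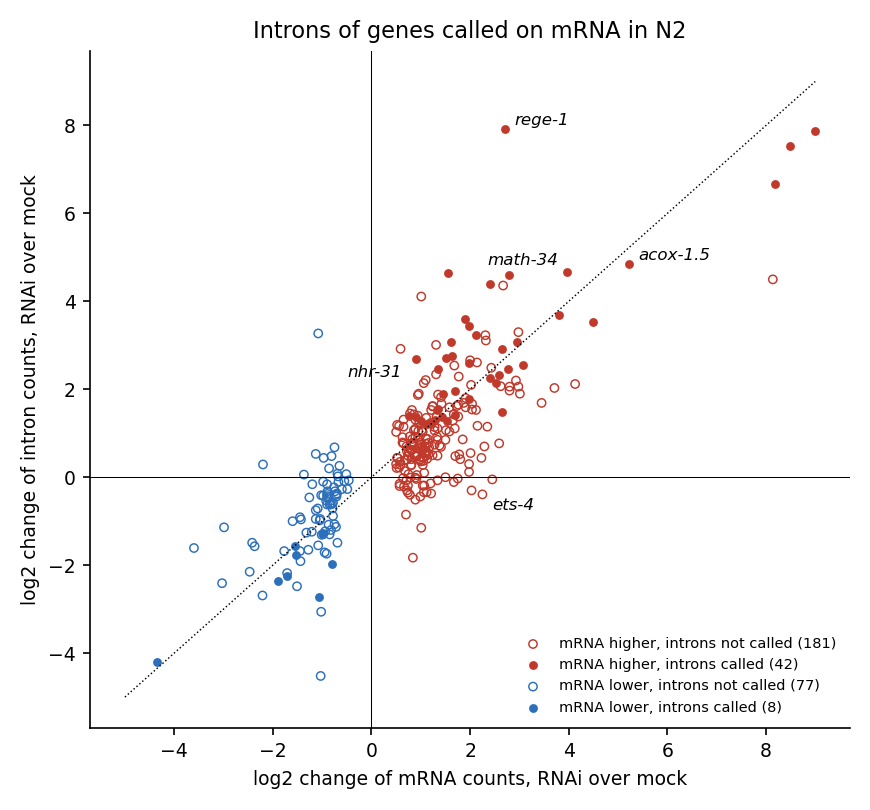
Genes called on mRNA that also had an intron test, placed by the log2 change of their mRNA counts and of their intron counts, libraries labelled rege-1 RNAi over mock; filled points were also called on introns, and the dotted line marks equal change. Of the higher genes 193 of 223 lie above 0 on both axes, rege-1 stands at 7.91 for introns, and ets-4 lies below 0 for introns at -0.39.

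Markers of tissues were counted alongside. In whole animals fewer cells of a type and less RNA per cell cannot be told apart. Of 16 intestine markers 8 were higher (50%, beside 3.13% over all genes) and 0 lower, with a median log2 change of 0.53. Their sum was 3461 and 3708 CPM in the RNAi-labelled libraries against 1821 and 1952 CPM in mock. The higher ones were genes of transport, acid and the brush border: nhx-2 (1.91), vha-6 (1.34), pept-1 (1.28), pho-1 (1.24), act-5 (1.04), ifd-2 (0.99), ifc-2 (0.63) and eps-8 (0.58), of which 6 were held. The call of ifc-2 ended without RNAi replicate 2 (adjusted p = 0.158) or without either mock replicate, 1 (0.126) or 2 (0.0544). For eps-8 it ended without mock replicate 1 (0.159) or without either RNAi replicate, 1 (0.0768) or 2 (0.162). The intestinal identity factor elt-2, a GATA factor, had 20.9 and 18.7 CPM in the RNAi-labelled libraries against 15.4 and 15.8 CPM in mock (0.35, SE 0.16, adjusted p = 0.37), and the gut esterase ges-1 had 66.4 and 80.1 CPM against 61.7 and 55.6 CPM in mock (0.32, SE 0.14, adjusted p = 0.319), neither past the test. Markers of body wall muscle (16), neurons (16), hypodermis (11), coelomocytes (4), the excretory cell (6) and the somatic gonad (10) had 0 called members. Pharynx markers (10) had 0 as well, and 2 higher without mock replicate 1, with sums of 505 and 519 CPM in the RNAi-labelled libraries against 476 and 297 CPM in mock. With 4.79% of all genes called, lists this short could hold 0 called members and still be like the rest. Of the higher intestine markers, vha-6, pept-1 and pho-1 are also members of the proton pump, transporter and acid phosphatase lists, so these counts are not separate. The part of the intestine markers in the family results was not tested.

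The same contrast in glp-1 animals does not share controls with that in N2. There 289 genes (1.89%) were higher and 125 (0.816%) lower. Of the 480 genes higher in N2, 261 were called higher in glp-1 and 469 had the same sign, with a median log2 change of 0.87. Of the 254 lower genes, 94 were called lower in glp-1 and 237 had the same sign, with a median of -0.66. By rank, 36 of the 40 higher genes in ranks 11 to 50 were called the same way in glp-1, 81 of 100 in ranks 51 to 150, and 116 of 266 in ranks 151 to 416. On the lower side the numbers were 35 of 40, 37 of 100 and 3 of 60 for ranks 11 to 50, 51 to 150 and 151 to 210. Side by side, the log2 change was 3.06 in N2 and 2.46 in glp-1 for asp-3, 2.95 and 3.06 for asm-2, 4.13 and 5.32 for lipl-1, and -2.02 and -0.90 for cyp-34A9. A difference between the strains passed the test in 4 genes (0.0261%), and in 0 without mock replicate 1 or mock replicate 2.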

How the data were processed

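Gene-level mRNA and intron read counts of 8 libraries were used as the authors deposited them, as raw whole numbers by their file headers and values. Recomputing the deposited log2 values showed that the authors had scaled each library to the mean total and added a pseudocount of 8. For the aligner, counter, genome build and strand setting, nothing is given in the sources used here. Groups came from the labels.

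Counts were filtered with filterByExpr (minimum count 10), scaled by TMM and tested with edgeR 4.0.16 in R 4.3.3 by the quasi-likelihood test, two-sided, over all 8 libraries in 4 groups, with 4 residual degrees of freedom and Benjamini-Hochberg adjustment at 0.05. The SE is the log2 change over the root of F. CPM are counts scaled by the TMM library size. Alternatives were other scalings and filters, N2 alone, a replicate block, DESeq2 1.42.0, limma 3.58.1 on the deposited log2 values, removal of the length trend, and each library left out.

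Members and the 80 gene lists were chosen with earlier results of these data known. Named were ranks 11 to 20 and the 8 middle ranks in each direction (called, at least 5 CPM in the higher group), the 8 most abundant called genes in each direction, and from each list called members of lowest p. Groups by symbol prefix and other genes were chosen after their values were seen. Symbols and positions came from the Ensembl annotation of WBcel235, matched by gene ID. Gene width in the table was read as coding length, being a multiple of 3 in 96.6% of genes. There were 3 rows listed by sequence name that repeat genes also listed by ID (pat-10, eps-8, pmt-1), and these stayed in the fit.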

Additional observations from a re-analysis of the deposited data

Results flagged for a closer look

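Between the strains the RNAi change differed in 4 genes by edgeR's test of the difference (N2 minus glp-1, over 15321 genes). Without N2 mock replicate 1 or N2 mock replicate 2 there were 0, without RNAi replicate 1 there were 3 and without RNAi replicate 2 there were 5. The C-type lectin clec-125 differed by 2.49 (SE 0.25, adjusted p = 0.00769), with 13.2 and 13.5 CPM in RNAi-labelled N2 libraries against 1.75 and 1.75 CPM in N2 mock, and 24.4 and 21.4 CPM in RNAi-labelled glp-1 libraries against 15.9 and 17.9 CPM in glp-1 mock. For clec-72 the difference was 3.29 (SE 0.37, adjusted p = 0.0162), with 29.5 and 38.6 CPM against 0.631 and 0.311 CPM in N2 mock, and 16.8 and 15.8 CPM in RNAi-labelled glp-1 libraries against 2.17 and 2.34 CPM in glp-1 mock. The carnitine palmitoyltransferase gene cpt-3 differed by 2.34 (SE 0.29, adjusted p = 0.0248), with 9.48 and 8.07 CPM against 1.82 and 1.63 CPM in N2 mock, and 6.57 and 6.15 CPM in RNAi-labelled glp-1 libraries against 5.70 and 7.01 CPM in glp-1 mock. The cytochrome cyp-13A12 differed by 3.55 (SE 0.48, adjusted p = 0.0429), with 5.61 and 6.02 CPM against 0.456 and 0.156 CPM in N2 mock, and 1.81 and 1.59 CPM in RNAi-labelled glp-1 libraries against 1.02 and 1.14 CPM in glp-1 mock.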

How the results depend on the processing

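Under these alternatives 0 of the called genes were called in the opposite direction. Over RLE size factors, library size alone, no filter, at least 1 CPM, N2 alone, DESeq2, limma on the deposited values and the length trend removed, genes higher numbered 420 to 546 and genes lower 190 to 312. Leaving out 1 library gave 288 to 383 higher and 105 to 294 lower. The replicate block gave 619 higher and 432 lower. Same-numbered libraries deviated together with a correlation of 0.17 in N2 and -0.04 in glp-1 over 2 pairs each, so the numbers were not taken to pair the samples. Intron calls were fewer and less firm. There were 22 higher with library size alone and 26 with N2 alone, and 22 to 31 with 1 library left out. Lower intron genes numbered 6 with library size alone, 18 with no filter, 3 with N2 alone, 20 with the replicate block and 4 with DESeq2, and 4 to 6 with 1 library left out. The difference between strains was called in 11 genes with no filter, 48 with the replicate block and 30 with DESeq2, and in 0 to 5 with 1 library left out. Over the 295 named and listed genes examined under the alternatives, 3350 results kept their side of the threshold and 470 lost it. The cause of these changes was not tested. With 2 libraries a group, low counts limit what can be called: the median SE was 0.49 below 1 CPM.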
